A study of Mus musculus with 84 samples.

Results

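Complement in these libraries was followed through 9 genes: the C1q chain genes C1qa, C1qb and C1qc, the component genes C3, C4b and Cfb, and the receptor genes C3ar1, C5ar1 and C5ar2. They were taken by symbol from the count rows of mouse Ensembl genes, and all 9 were found among 49671 gene identifiers. Complement is a cascade of plasma and tissue proteins that tags debris, microbes and synapses for uptake. C1q, a protein built from the products of C1qa, C1qb and C1qc, starts the classical pathway, in which C4 and then C3 are cleaved; factor B, the product of Cfb, forms the C3-cleaving enzyme of the alternative pathway. The fragments C3a and C5a that are released act on receptors, encoded by C3ar1, C5ar1 and C5ar2, that call in and activate phagocytes. Microglia, the resident macrophages of the brain, are the main source of brain C1q and carry receptors for both fragments.

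The data were 84 RNA-seq libraries of microglia sorted from mouse brain by flow cytometry after severe traumatic brain injury, split by treatment, day and the year of the library into 22 groups. The study asked how microglial gene expression changes when monocytes of the periphery are depleted with clodronate liposomes, vesicles whose drug is toxic to the phagocytes that engulf them. At 1, 7, 14, 30 and 60 days microglia came from uninjured animals and from injured animals that had no further treatment (injury only), clodronate liposomes or vehicle liposomes. The uninjured animals are called sham in the titles and naive in the library names, so what they shared with the injured animals apart from the injury is not known. The labels name no strain, genotype, sex, age or sort gate, and do not say that libraries came from separate mice, so each p-value measures the spread between these libraries. Each group held 2 to 5 libraries of 1 library year. At day 1 the clodronate libraries (3 and 3) and vehicle libraries (2 and 2) each came from an earlier and a later library year, given in the library names, and at day 14 the uninjured and injury-only libraries came from an earlier year than the liposome libraries. Vehicle and injury only were therefore not compared at day 14, where year and treatment cannot be told apart. Total gene counts were 8681681 to 18654785 per library at days 1, 14 and 30, 1134078 to 15375096 at day 7 and 1109856 to 12306417 at day 60. Levels are CPM, a gene's counts relative to the scaled total of its library.

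The microglial label was checked against 12 homeostatic microglia markers, among them Tmem119 and P2ry12. In 83 libraries their summed level was at least 16448 CPM. The exception was uninjured library 3 of day 14, with 1899.6 CPM for these markers, 12168 CPM for 12 monocyte markers and 9743 CPM for 9 neutrophil markers, where its fellow uninjured libraries held 30525 and 34122, 1659.5 and 780, and 17.1 and 7.54 CPM. At day 14 the library labelled vehicle 1 also stood apart from vehicle libraries 2 to 5, and the library labelled clodronate 1 from clodronate libraries 2 to 5. All values below follow the labels, and whether the labels of vehicle library 1 and clodronate library 1 are right was not tested. The main results of day 14, the tests between days and the correlations are given with and without these libraries. In sorted bulk samples such as these, fewer cells of a type and less RNA per cell cannot be told apart.

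All 9 genes lie on the minus strand of their chromosome in GRCm38. C1qa (ENSMUSG00000036887, chr4:136895917-136898803), C1qc (ENSMUSG00000036896, chr4:136889804-136893065) and C1qb (ENSMUSG00000036905, chr4:136880129-136886187) are neighbours on chromosome 4. C4b (ENSMUSG00000073418, chr17:34728380-34743882) and Cfb (ENSMUSG00000090231, chr17:34856374-34862518) are near each other on chromosome 17, and C3 (ENSMUSG00000024164, chr17:57203970-57228136) lies farther along it. C5ar2 (ENSMUSG00000074361, chr7:16234585-16244154) and C5ar1 (ENSMUSG00000049130, chr7:16246743-16259540) are neighbours on chromosome 7, and C3ar1 (ENSMUSG00000040552, chr6:122847138-122856161) is on chromosome 6. Of the 2825 exonic bases of Cfb, 2246 (79.504%) are also exons of Gm20547, an annotated read-through gene on the same strand. No source used here gives the treatment of reads on the shared exons, and their part in the low Cfb counts was not tested. C4b has a near-identical copy, C4a, and how reads were split between them is uncertain.

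RefSeq promoter sequences in the build GRCm38.p6 were at hand for 6 of the 9 genes. The 250 bases before the RefSeq start are shown for 4 of them, to set a C1q gene beside the C3 gene and the receptor genes that moved with injury below. They are written 5′ to 3′ on the gene's strand, with matches to the searched motifs in capitals. The windows are chr4:136886201-136886450, chr17:57228137-57228386, chr6:122856158-122856407 and chr7:16259339-16259588, all minus strand. The C5ar1 window reaches into the longer GENCODE gene, with 202 bases inside it and 28 in annotated exons, and the C3ar1 window holds 4 exonic bases.
C1qb: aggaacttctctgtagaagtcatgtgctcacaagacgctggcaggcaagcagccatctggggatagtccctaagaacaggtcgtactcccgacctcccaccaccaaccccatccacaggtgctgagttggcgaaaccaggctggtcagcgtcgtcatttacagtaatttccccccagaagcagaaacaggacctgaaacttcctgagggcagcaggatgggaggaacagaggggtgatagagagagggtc
C3: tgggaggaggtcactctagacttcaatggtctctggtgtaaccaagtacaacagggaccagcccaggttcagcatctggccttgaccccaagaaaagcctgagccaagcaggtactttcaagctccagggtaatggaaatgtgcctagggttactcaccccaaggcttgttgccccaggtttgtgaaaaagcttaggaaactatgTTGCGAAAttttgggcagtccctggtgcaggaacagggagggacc
C3ar1: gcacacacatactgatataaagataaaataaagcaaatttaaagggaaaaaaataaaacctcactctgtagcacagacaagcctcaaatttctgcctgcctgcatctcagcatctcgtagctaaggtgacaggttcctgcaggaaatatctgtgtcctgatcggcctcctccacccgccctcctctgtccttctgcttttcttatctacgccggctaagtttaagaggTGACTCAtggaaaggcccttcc
C5ar1: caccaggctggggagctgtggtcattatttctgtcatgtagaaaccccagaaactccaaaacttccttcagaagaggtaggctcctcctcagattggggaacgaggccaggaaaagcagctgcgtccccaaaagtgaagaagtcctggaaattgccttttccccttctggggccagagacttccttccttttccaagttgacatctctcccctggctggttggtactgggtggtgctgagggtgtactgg

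The motifs were searched on both strands in the windows of all 6 genes and of 32851 promoters in all. The C3 window held a C/EBP-type match to TTGCNNAA that begins 45 bases before the start (TTGCGAAA), a motif present in 9.564% of all promoters. The C3ar1 window held an AP-1-type match to TGANTCA beginning 22 bases before the start (TGACTCA, 6.749% of all promoters). The window of C1qc, not printed because 151 of its bases are annotated exon, held a PU.1-type match to GAGGAAGT on the other strand at 195 bases before the start (ACTTCCTC, 2.441%). C5ar2 had C/EBP-type matches at 210 and 166 bases before the start in the first of its 2 windows. No match to an NF-kB-type motif, an interferon-response-type motif or the STAT-type TTCNNNGAA was present in any of these windows, and C1qb and C5ar1 had no match to any of the 6 motifs. A match is a description of the letters only.

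Per kilobase of exon, the C1q genes stood far above the rest. Over the 84 libraries the median level per kilobase was 8574 CPM for C1qb, 4146 for C1qa and 3592 for C1qc. C5ar1 and C3ar1 followed at 131 and 127 CPM per kilobase, then C4b at 9.33, C5ar2 at 7.85, C3 at 1.16 and Cfb at 0.0806. On the 579 exonic bases that Cfb does not share with Gm20547, its counts come to 0.393 CPM per kilobase. By range over the 84 libraries, each gene in this order of medians overlapped the next. C1qc and C5ar1 did so only through uninjured library 3 of day 14. By the highest library over the median, C3 varied most, at 67.8-fold (405 over 5.97 CPM), then Cfb at 42.6-fold, C4b at 19.7-fold and C5ar1 at 6.73-fold. For the other 5 genes this ratio lay between 1.61, for C1qb (15032 over 9329 CPM), and 2.67, for C3ar1. C3 had no count in 2 libraries and Cfb none in 17.

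By edgeR, no C1q gene rose in any comparison, and 1 of them, C1qc, fell in 1 comparison, after injury at day 1. Together they made up a median of 2.085% of all gene counts, between 1.606% and 2.992% in 83 libraries and 0.105% in uninjured library 3 of day 14. Their proportions per kilobase were also narrow: C1qb took a median of 52.3% of the sum (range 48.0 to 57.5), C1qa 25.3% (22.4 to 31.0) and C1qc 22.7% (17.5 to 24.2). Without uninjured library 3 of day 14 the highest C1qb share was 55.2% and the lowest C1qc share 18.9%.

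At day 1, C1qa was at 4735, 4449.8, 4419.5, 4024 and 4551 CPM after injury and at 4627, 3813, 4739, 4236 and 3435 CPM in uninjured libraries. These ranges overlap, and the log2 difference was 0.06 (SE 0.10, adjusted p = 0.698 by edgeR). For C1qb the log2 difference was 0.00 (SE 0.10, adjusted p = 1.00), with means of 9628 ± 984 and 9418 ± 1168 CPM (SD, n = 5 and 5). C1qc fell by 0.28 on the log2 scale (SE 0.10, adjusted p = 0.0403 by edgeR), from 7199 ± 886 to 6076 ± 488 CPM, with overlapping groups of 6398, 6354, 5875, 5307 and 6448 against 8481, 6448, 7715, 6918 and 6434 CPM. The C1qc call was lost without injured library 3 or 4 or uninjured library 1, 3 or 4 (adjusted p = 0.0507 to 0.137), and with no filter on low counts (0.096). At days 7, 30 and 60 the injury differences of the 3 genes lay between 0.03 and 0.16 on the log2 scale and none passed the test. At day 14 uninjured library 3 held 219, 527 and 285 CPM of C1qa, C1qb and C1qc. With it the log2 difference of C1qa was 0.49 (SE 0.67), and without it -0.04 (SE 0.32).

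**Figure D1:**
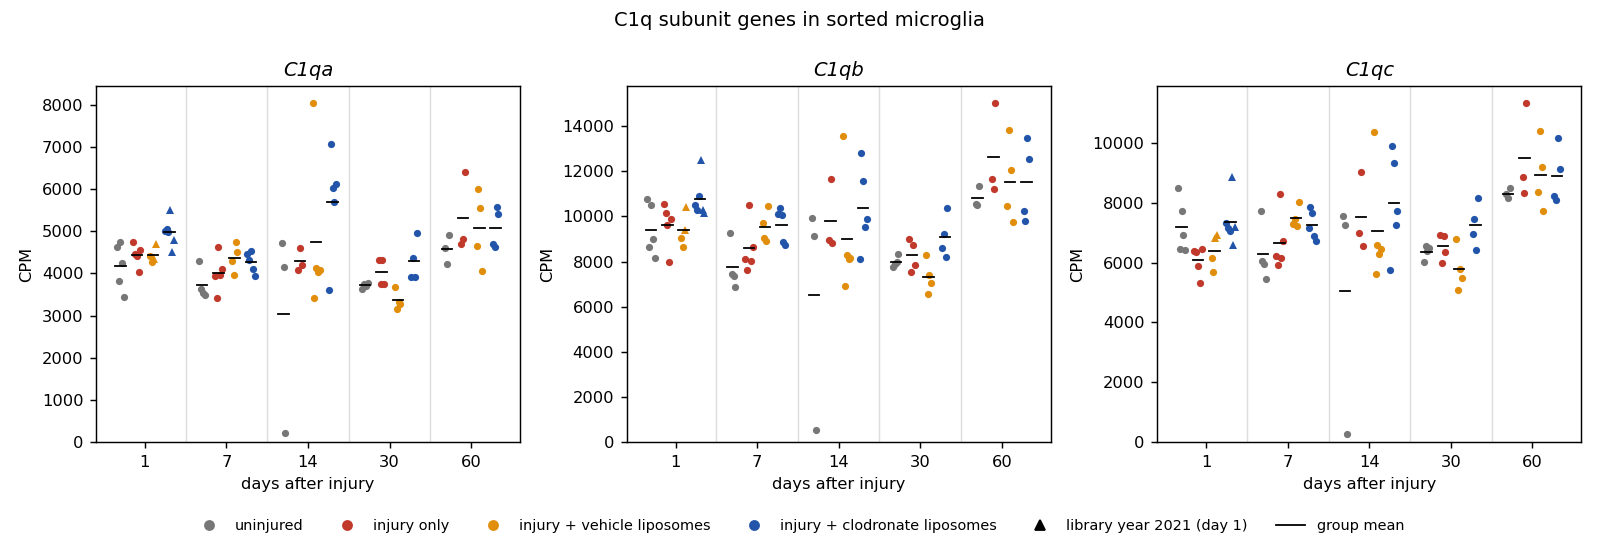
CPM (linear axes) of C1qa, C1qb and C1qc in each library by day after injury. Points are libraries, colours are treatments, triangles are the later libraries of day 1 and black lines are group means; apart from the uninjured library of day 14 at 219, 527 and 285 CPM, the groups overlap on most days.

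C3 and C4b rose after injury at day 1, and C3, C4b and Cfb at day 7. At day 1, 8 of the 9 genes passed the filter on low counts; 4 rose and 1 fell in injury only against uninjured, where 33.8% of the 14516 genes tested were called (18.5% higher and 15.3% lower). At day 7, 9 genes were tested and 3 rose, where 7.68% of 14278 genes were called (6.14% higher and 1.54% lower). Of these 3, Cfb passed the filter through the injured libraries and had to differ, as given below.

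C4b, which encodes complement C4, the substrate of the C1 complex, was at 45.1, 54.4, 44.5, 75.7 and 94.5 CPM in the injured libraries of day 1. Uninjured libraries held 9.79, 6.32, 12.8, 17.0 and 13.2 CPM. Every injured library lay above every uninjured one, and the log2 difference was 2.38 (SE 0.29, adjusted p = 1.68e-06 by edgeR), or 5.22-fold. At day 7 the injured libraries held 108, 117, 55.6, 151 and 197 CPM. The uninjured libraries of that day held 8.11, 24.1, 41.4 and 45.9 CPM. The groups again did not overlap, with a log2 difference of 2.08 (SE 0.50, adjusted p = 0.0132). Without uninjured library 2 of day 7 the difference was 1.99 and its adjusted p = 0.0522. Groups that did not overlap, with the injured higher, made up 15.0% of all genes tested at day 1 and 8.16% at day 7.

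C3, the component at which all pathways meet, was scarce at day 1, with 3.30, 1.25, 5.61, 4.85 and 4.96 CPM after injury. Uninjured libraries of that day held 0.253, 1.96, 1.08, 2.65 and 0.876 CPM. Injured library 2 lay inside the uninjured range, and the log2 difference was 1.51 (SE 0.43, adjusted p = 0.0089 by edgeR). At day 7 the injured libraries held 38.7, 21.0, 18.8, 23.9 and 21.0 CPM. Uninjured libraries of day 7 held 1.20, 0.777, 1.74 and 1.42 CPM. Every injured library lay far above every uninjured one, and the log2 difference was 4.26 (SE 0.83, adjusted p = 0.00351).

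Cfb, which encodes factor B, had too few counts to be tested at day 1 (0 to 0.267 CPM after injury and 0.0804 to 0.359 CPM without). At day 7 the injured libraries held 0.911, 2.11, 2.15, 1.03 and 3.00 CPM. Uninjured libraries held 0, 0, 0.0757 and 0.0746 CPM, which is 2 counts in all, against 107 counts after injury. The ratio of these counts, scaled by library size, was 45.6 (95% exact interval 12.3 to 381.4, counting error only), and the fitted log2 difference was 5.25 (SE 1.04, adjusted p = 0.00379 by edgeR). Cfb passed the filter at day 7 through the injured libraries, where it is high, and so had to differ; its call is a description. It was not tested at days 1, 30 and 60.

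At days 30 and 60 none of the 9 genes passed the test between injury only and uninjured. Among the 9, an unadjusted p under 0.05 was reached by C5ar1 at day 30 and C4b at day 60, and DESeq2 and limma voom called none on either day. At day 30 no gene of 14082 was called by edgeR (0.0%), with 639 at an unadjusted p under 0.05 and 0 called by DESeq2 and by limma voom; at day 60, 5 genes of 12033 were (0.0416%). C3 at day 30 was at 6.87, 11.7, 8.12 and 5.15 CPM after injury and at 7.80, 1.09, 0.716 and 0 CPM without, where uninjured library 1 held the highest uninjured value (log2 difference 1.72, SE 0.87, adjusted p = 1.00). Without that library it was 3.78 (adjusted p = 0.177). C4b at day 60 was at 25.9, 21.6 and 73.0 CPM after injury and at 12.03, 9.24 and 16.4 CPM without. These C4b groups did not overlap (as for 7.44% of genes tested at day 60), and the log2 difference of 1.60 (SE 0.47) had an unadjusted p = 0.00294 and an adjusted p = 1.0. Without the injured library at 73.0 CPM it was 0.82. Total gene counts separated the same groups of day 60, at 8431455 to 12306417 after injury and 2930843 to 3739798 without. The part of this in the difference was not tested. At day 14 no gene of 14354 was called (0.0%), with 1963 at an unadjusted p under 0.05, 97 called by DESeq2 and 0 by limma voom; the 9 genes gave 0 by each of these. C3 of that day was at 21.5, 32.5 and 49.6 CPM after injury and at 34.4, 0 and 372 CPM without, so the uninjured libraries spanned the whole injured range. The log2 difference was -1.97 (SE 1.74) with uninjured library 3 and 1.00 (SE 1.71) without it.

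**Figure D2:**
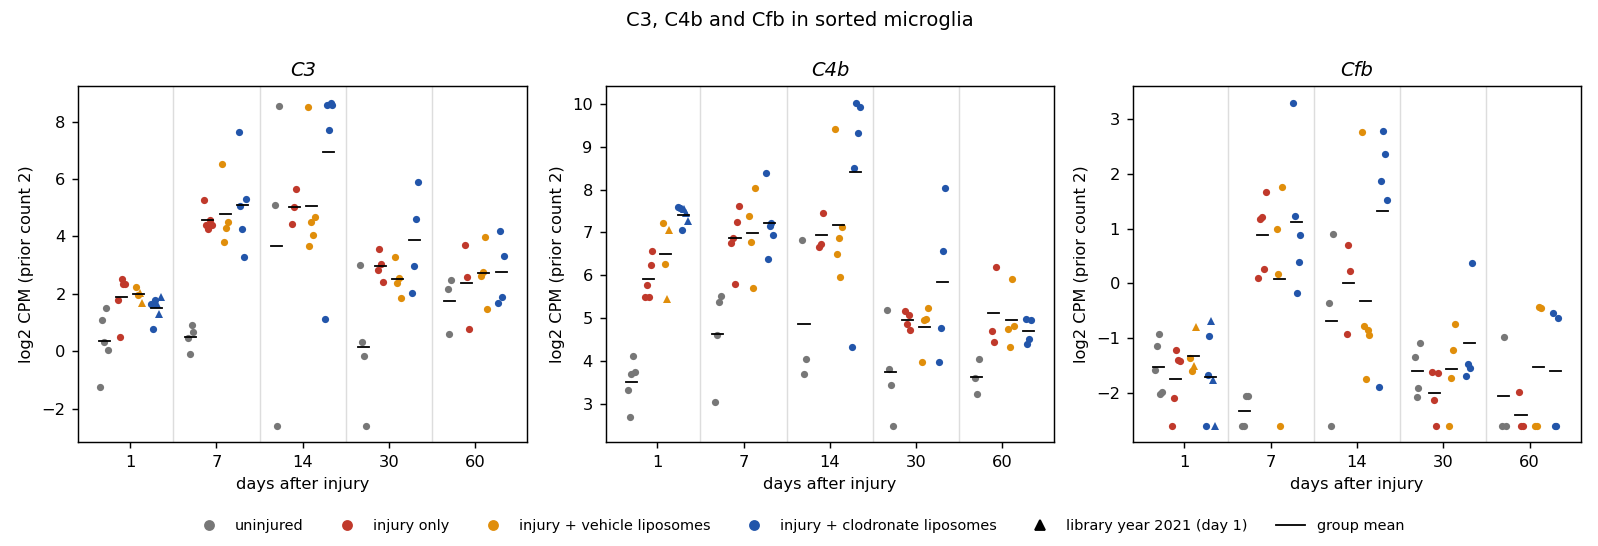
Level (log2 CPM with a prior count of 2) of C3, C4b and Cfb in each library by day after injury. Points are libraries, colours are treatments, triangles are the later libraries of day 1 and black lines are means of the plotted values; at day 7 the uninjured libraries lie below the injury-only ones for all 3 genes, and at day 14 the clodronate libraries other than library 1 lie with vehicle library 1.

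Of the receptor genes, C5ar1 and C3ar1 rose at day 1. C5ar1, the main receptor for C5a, was at 2082, 2138, 1886, 1574 and 2206 CPM in injured libraries of day 1. Uninjured libraries held 334, 317, 319, 434 and 350.0 CPM. The groups lay far apart, with a log2 difference of 2.47 (SE 0.20, adjusted p = 7.73e-09 by edgeR), or 5.53-fold. C3ar1, the receptor for C3a, was at 1332, 1287, 1462, 1023 and 1143 CPM after injury. Its uninjured libraries held 526, 516, 467, 668 and 611 CPM. Again no injured library overlapped an uninjured one, and the log2 difference was 1.14 (SE 0.16, adjusted p = 9.67e-06), or 2.20-fold. C5ar2, a C5a receptor that does not signal through G proteins, was at 41.6, 38.7, 34.4, 29.8 and 34.8 CPM after injury and at 23.3, 30.9, 29.3, 29.1 and 30.7 CPM without. Its groups overlapped, and its log2 difference of 0.30 (SE 0.13) did not pass the test (adjusted p = 0.0875 by edgeR).

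By day 7, C5ar1 was at 211, 174, 179, 165 and 194 CPM after injury and at 247, 205, 199 and 196 CPM without, and the groups overlapped (log2 difference -0.19, SE 0.18, adjusted p = 0.596). C3ar1 was at 675, 499.6, 417, 454 and 486 CPM after injury and at 397, 360.0, 401 and 401 CPM without. Its groups did not overlap, but the log2 difference of 0.39 (SE 0.14) did not pass the test by edgeR (adjusted p = 0.105). It did by DESeq2 (0.0441) and by limma voom (0.0301), which called 11.5% and 13.7% of all genes tested. C5ar2 stood at 25.7 ± 4.93 CPM after injury and 35.0 ± 3.84 CPM without (SD, n = 5 and 4, adjusted p = 0.275). At day 30 the mean of C5ar1 in injured libraries was 312 ± 29.4 CPM, against 372 ± 47.3 CPM in uninjured ones (SD, n = 4 and 4), a log2 difference of -0.26 with an unadjusted p = 0.0269 and an adjusted p = 1.00. At day 60 these means were 262 ± 21.8 and 226 ± 19.0 CPM (SD, n = 3 and 3); every injured library lay above, and the log2 difference of 0.14 did not pass the test (adjusted p = 1.00 by edgeR). The injury-only libraries of day 60 also had more total gene counts than the uninjured ones, as given above. Across the series, the 15 injured libraries of day 1 held 807 to 2263 CPM of C5ar1, and every other library held less than 807 CPM except clodronate library 3 of day 14 (923 CPM).

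**Figure D3:**
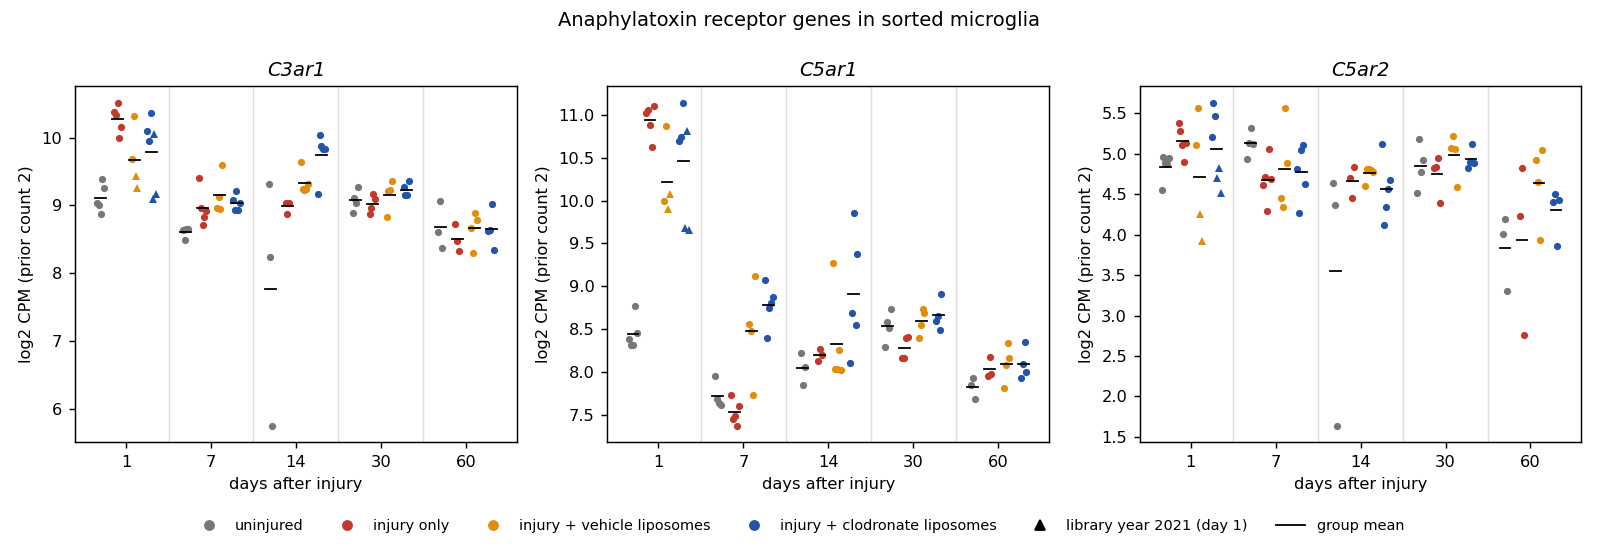
Level (log2 CPM with a prior count of 2) of C3ar1, C5ar1 and C5ar2 in each library by day after injury. Points are libraries, colours are treatments, triangles are the later libraries of day 1 and black lines are means of the plotted values; the injury-only libraries of day 1 lie above the uninjured ones for C3ar1 and C5ar1.

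Whether the injury difference changed with day was tested in 1 fit of all 84 libraries, in which 13.3% of 17777 genes were called by edgeR. C5ar1 (adjusted p = 1.33e-09), C3ar1 (0.0227), Cfb (0.0328) and C3 (0.0449) were called, and C4b (0.689), C5ar2 (0.222), C1qa (0.91), C1qb (0.79) and C1qc (0.599) were not. In every group of days 1, 30 and 60 Cfb was scarce, and it was higher mainly in libraries of injured animals at days 7 and 14. It passed the filter mainly through these libraries, so its call is a description. With day 1 left out none of the 9 was called, with day 7 left out C3ar1 and C5ar1 were, with day 14 left out C3 was not, and with day 30 or day 60 left out C3ar1 was not. Without uninjured library 3 of day 14, C3 was not called and C3ar1, C5ar1 and Cfb were; without vehicle library 1 and clodronate library 1 of that day all 4 were. The limma voom test, which called 20.1% of all genes, called C3ar1, C5ar1, C5ar2 and Cfb but not C3. The injury-only and uninjured libraries of days 14 and 60 were of other library years than those of days 1, 7 and 30. For days 14 and 60, day and library year therefore cannot be told apart.

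Some markers of other cells and of homeostatic microglia moved beside the injury differences. At day 1, all 12 homeostatic markers fell (summed level 18087 to 21436 CPM after injury, 38597 to 45358 CPM without). Of 12 monocyte markers, 10 passed the filter on low counts and 8 rose, with sums of 772 to 1717 CPM against 687 to 1224 CPM. Among the 12, Ccr2 overlapped between the groups, at 4.61 to 12.9 CPM after injury and 5.74 to 9.29 CPM without. Ly6c2 was near the floor in both, at 0 to 0.5 and 0 to 0.322 CPM. The 9 neutrophil markers summed to 3.68 to 13.7 CPM after injury and to 0.322 to 1.01 CPM without, groups that did not overlap, and Ly6g and Camp were at 0 in all injury-only libraries. Only 4 neutrophil markers passed the filter, and all 4 rose. A marker that passed only through libraries of injured animals had to differ, so these counts are no support. Of 9 endothelial and mural markers, 2 rose at day 1 (102 to 329 CPM against 62.2 to 142 CPM). At day 7, 6 of 9 endothelial and mural markers rose (314 to 453 CPM against 128 to 193 CPM), as did 3 of 8 astrocyte markers (173 to 248 CPM against 171 to 181 CPM), 3 of 9 tested monocyte markers (364 to 870.4 CPM against 259 to 668 CPM) and 1 of 6 tested neutrophil markers (1.51 to 22.7 CPM against 0.227 to 1.64 CPM). Of the homeostatic markers, 6 of 12 fell at day 7 (27397 to 37484 CPM against 38929 to 47172 CPM), and of 9 border macrophage markers 1 rose and 4 fell (91.8 to 163 CPM against 110.4 to 317 CPM). Gja1, an astrocyte gap junction gene, was at 22.8 to 46.1 CPM after injury and at 3.29 to 5.52 CPM without. The part of these cells in the differences of C3, C4b, Cfb, C3ar1 and C5ar1 was not tested.

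Vehicle liposomes were compared with injury only at days 1, 7, 30 and 60; this comparison shares the injury-only libraries with the one above. At day 7, 1 of 9 genes rose, where 0.336% of genes were called (0.196% higher). C5ar1 was at 378, 355, 212 and 558 CPM with vehicle liposomes. The library at 212 CPM, vehicle library 4, was of low quality. It had 1134078 gene counts, 54.62% of reads uniquely aligned and 22.4% of reads in no gene. Injury-only libraries held 211, 174, 179, 165 and 194 CPM. All vehicle libraries lay above all injury-only ones (1.35% of genes tested), and the log2 difference was 1.05 (SE 0.18, adjusted p = 0.0109 by edgeR). The call was lost without vehicle library 5 (log2 difference 0.80, adjusted p = 0.0558) and when only these groups were fitted (adjusted p = 0.0813). Beside it, the 12 monocyte markers summed to 774 to 1649.9 CPM with vehicle and 364 to 870.4 CPM with injury only, and the 9 neutrophil markers to 11.9 to 45.4 and 1.51 to 22.7 CPM, with Ly6g and Ear2 at 0 in the vehicle libraries. None of the monocyte or neutrophil markers was called. Of 8 astrocyte markers 2 fell (141 to 188 against 173 to 248 CPM, median log2 difference -0.85), and the 9 border macrophage markers had a median log2 difference of 0.81 with none called (94.7 to 276 against 91.8 to 163 CPM). The part of these cells was not tested.

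At day 1 none of the 9 genes was called between vehicle and injury only by edgeR, DESeq2 or limma voom (0.875% of genes were called by edgeR), and 1, C4b, had an unadjusted p under 0.05. C5ar1 was at 1023 and 1876 CPM in the earlier vehicle libraries and at 959.5 and 1084 CPM in the later ones, against 1574 to 2206 CPM with injury only. The log2 difference was -0.34 (SE 0.23, adjusted p = 0.53 by edgeR) with library year in the fit and -0.43 within the earlier year. C4b was at 150.2 and 77.2 CPM in the earlier vehicle libraries and at 43.5 and 132 CPM in the later ones (log2 difference 0.80, SE 0.31, adjusted p = 0.233); with no filter on low counts it was called (1.25e-06). At day 30 no gene was called by edgeR (0.0%), with 1212 at an unadjusted p under 0.05, 35 called by DESeq2 and 8 by limma voom. C5ar1 at day 30 was at 338, 375, 424 and 413 CPM with vehicle and at 287, 287, 335 and 339.8 CPM with injury only, overlapping groups with a log2 difference of 0.33 (SE 0.11, unadjusted p = 0.00616, adjusted p = 0.476 by edgeR). C1qa at day 30 was at 3687, 3151, 3322 and 3271 CPM with vehicle and at 4315, 3757, 4309 and 3749 CPM with injury only, so the vehicle libraries lay below (2.41% of genes tested), with a log2 difference of -0.24 (SE 0.09, adjusted p = 0.476 by edgeR). At day 60, where 1 gene of 12033 was called (0.00831%), it was none of the 9, and none of the 9 had an unadjusted p under 0.05 or was called by DESeq2 or limma voom.

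Clodronate liposomes were compared with vehicle liposomes, the comparison the study was built on, at each of the 5 days, and edgeR called none of the 9 genes at any of them. The share of all genes called was 0.186% at day 1, 0.574% at day 7 and 0.0% at days 14, 30 and 60. At an unadjusted p under 0.05 were 785 genes at day 14, 1199 at day 30 and 789 at day 60, and DESeq2 called 17, 33 and 17 and limma voom 2954, 135 and 0. Among the 9 genes, an unadjusted p under 0.05 was reached by 2 at day 1, 5 at day 30 and 0 at days 7, 14 and 60. DESeq2 called none of the 9 at any day, and limma voom called 5 at day 14, 3 at day 30 and 0 at days 1, 7 and 60.

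At day 1, C4b was at 195, 192 and 133 CPM in the earlier clodronate libraries and at 186, 174 and 154 CPM in the later ones. With the vehicle values above, the clodronate range of 133 to 195 CPM overlaps the vehicle range of 43.5 to 150.2 CPM. The log2 difference was 0.76 (SE 0.28, adjusted p = 0.385 by edgeR, unadjusted p = 0.012), 0.61 within the earlier year and 0.89 within the later one. All 6 clodronate libraries lay above the vehicle mean, and with no filter on low counts C4b was called (adjusted p = 3.37e-07). C5ar1 was at 1665, 1714 and 2263 CPM in the earlier clodronate libraries and at 819, 1803 and 807 CPM in the later ones, with log2 differences of 0.38 (SE 0.21) and 0.10 (SE 0.35) within those years. The spread of C5ar1 within the later clodronate libraries was larger than either difference. At day 7, C3 was at 200.2, 33.2, 18.9, 9.59 and 39.7 CPM with clodronate and at 91.6, 13.8, 19.2 and 22.3 CPM with vehicle, where clodronate library 1 and vehicle library 2 were the highest of their groups and the ranges overlapped (log2 difference 0.62, adjusted p = 0.737, and -0.61 without clodronate library 1). Cfb of day 7 was at 9.71, 2.19, 0.718, 1.15 and 1.69 CPM with clodronate and at 1.84, 0.966, 0 and 3.24 CPM with vehicle, and vehicle library 4, at 0, had the fewest counts of that day. The log2 difference of Cfb was 0.75, and -0.34 without clodronate library 1. The log2 differences of the other 7 genes lay between -0.18 and 0.20 at day 7.

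At day 14, vehicle library 1 lay with clodronate libraries 2 to 5, and clodronate library 1 with or below vehicle libraries 2 to 5, in C3, C4b, Cfb and C1qa. C3 was at 2.00, 386, 207, 405 and 382 CPM in clodronate libraries 1 to 5. It was at 361, 12.4, 22.4, 16.6 and 25.5 CPM in vehicle libraries 1 to 5. Vehicle library 1 thus lay among clodronate libraries 2 to 5, and clodronate library 1 lay below all vehicle libraries. C4b showed the same arrangement, with 19.8, 362, 1047, 637 and 979 CPM against 681, 89.7, 117, 61.7 and 139.6 CPM. Cfb was at 0.105, 3.50, 6.71, 4.98 and 2.73 CPM with clodronate and at 6.61, 0.418, 0.132, 0.388 and 0.356 CPM with vehicle. C1qa was at 3595, 7068, 6030.0, 5683 and 6119.6 CPM and at 8039.6, 3411, 4130.2, 4025 and 4074 CPM, so vehicle library 1 was the highest of all 10 and clodronate library 1 lay among vehicle libraries 2 to 5.

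With all libraries the log2 difference of C3 was 1.66 (SE 1.33, adjusted p = 1.00 by edgeR). It was 3.83 (adjusted p = 0.316) without vehicle library 1 and 1.98 (0.666) without clodronate library 1. For C4b the 3 values were 1.48, 2.56 and 1.79, and for C5ar1 0.63, 0.94 and 0.79, none called. The limma voom test with quality weights, which gives less weight to libraries far from their group, called C3 (log2 difference 3.61), Cfb (3.11), C4b (2.58), C5ar1 (0.87) and C3ar1 (0.54), where it called 20.6% of all genes tested. With vehicle library 1 and clodronate library 1 both left out, an alternative chosen after their values were seen, edgeR called C4b (2.88, adjusted p = 0.0295), C5ar1 (1.11, 0.0311) and Cfb (3.74, 0.0365), where 2.16% of genes were called. The choice was made from values of the members themselves, so these calls are a description and no support for a difference. The 12 homeostatic markers summed to 37274 CPM in clodronate library 1 and 20791 to 25077 CPM in the other clodronate libraries, and to 24179.8 CPM in vehicle library 1 and 30858 to 33362 CPM in the other vehicle libraries. The 9 border macrophage markers summed to 103 and 489 to 645 CPM, and to 587 and 198 to 311 CPM, in the same order, and the 12 monocyte markers to 1254 and 1018 to 3135 CPM, and to 1369.6 and 729 to 1074 CPM. The border macrophage sum and its members differed in sign: with all libraries the median log2 difference of the 9 markers was -0.89, none called, and Mrc1 had a median of 41.5 CPM with clodronate and 84.8 CPM with vehicle. The part of these cells in the differences was not tested.

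**Figure D4:**
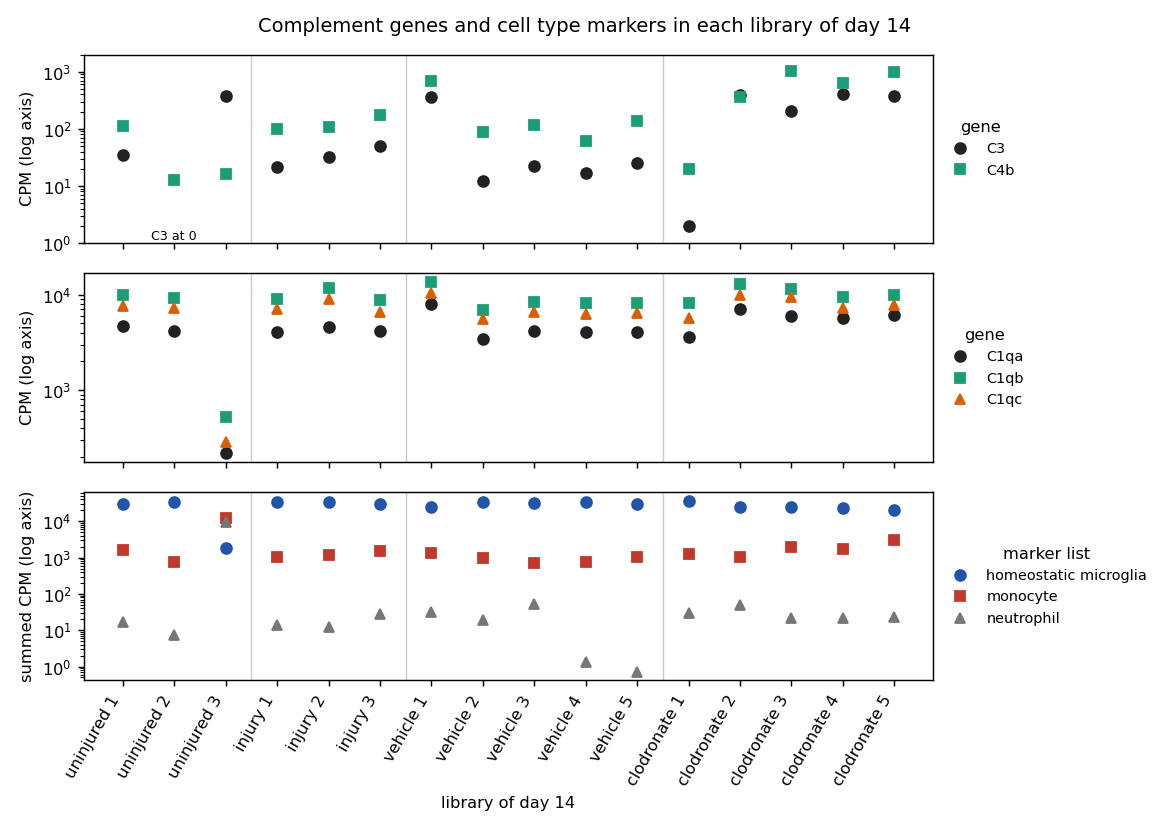
CPM of C3 and C4b (top), of the 3 C1q genes (middle) and summed CPM of 3 marker lists (bottom) in each library of day 14, all on log axes, with vertical lines between treatments. Uninjured library 3 has the lowest C1q and homeostatic marker levels and the highest monocyte and neutrophil marker levels; vehicle library 1 (C3 at 361 CPM) lies with clodronate libraries 2 to 5 (207 to 405 CPM).

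At day 30, C1qa was at 3915, 4369, 3904 and 4964 CPM with clodronate. Vehicle libraries held 3687, 3151, 3322 and 3271 CPM. All clodronate libraries lay above (2.46% of genes tested), with a log2 difference of 0.34 (SE 0.09, adjusted p = 0.36 by edgeR). The same vehicle libraries lay below injury only above, so these differences are not independent. Mean C1qa was 3358 CPM with vehicle, 4288 with clodronate, 4033 with injury only and 3712 in uninjured libraries. The log2 differences of C1qb (0.30) and C1qc (0.31) were of like size, with adjusted p = 0.417 and 0.427. The limma voom test, which called 0.959% of all genes, called all 3 (adjusted p = 0.025, 0.0327 and 0.025), and edgeR called C1qa (0.0455) and C1qc (0.0401) without vehicle library 1. C3 was at 3.89, 7.68, 24.0 and 59.7 CPM with clodronate and at 9.65, 5.07, 5.67 and 3.48 CPM with vehicle. C4b was at 15.6, 27.2, 95.1 and 263 CPM with clodronate and at 15.5, 30.8, 31.5 and 37.7 CPM with vehicle. Clodronate libraries 3 and 4 lay above the vehicle range for both genes, and libraries 1 and 2 lay inside it. The log2 differences were 1.97 (SE 0.82, adjusted p = 0.538) for C3 and 1.78 (SE 0.65, adjusted p = 0.468) for C4b by edgeR. Without clodronate library 4 they were 0.97 and 0.66. At day 60 the log2 differences of the 8 genes tested lay between -0.42 and 0.10. Between days, the difference of clodronate from vehicle was not called for any of the 9 genes by edgeR (0.27% of 17777 genes were; the lowest of the members' unadjusted p was 0.121, for C4b), while limma voom, which called 8.97% of all genes, called C4b, C5ar1 and Cfb. Without uninjured library 3 of day 14 edgeR again called none of the 9. Without vehicle library 1 and clodronate library 1 of day 14 it called C3, C4b and C5ar1, where 4.08% of genes were called. These libraries were left out after the values of the members had been seen, so these calls are a description and no support.

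**Figure D5:**
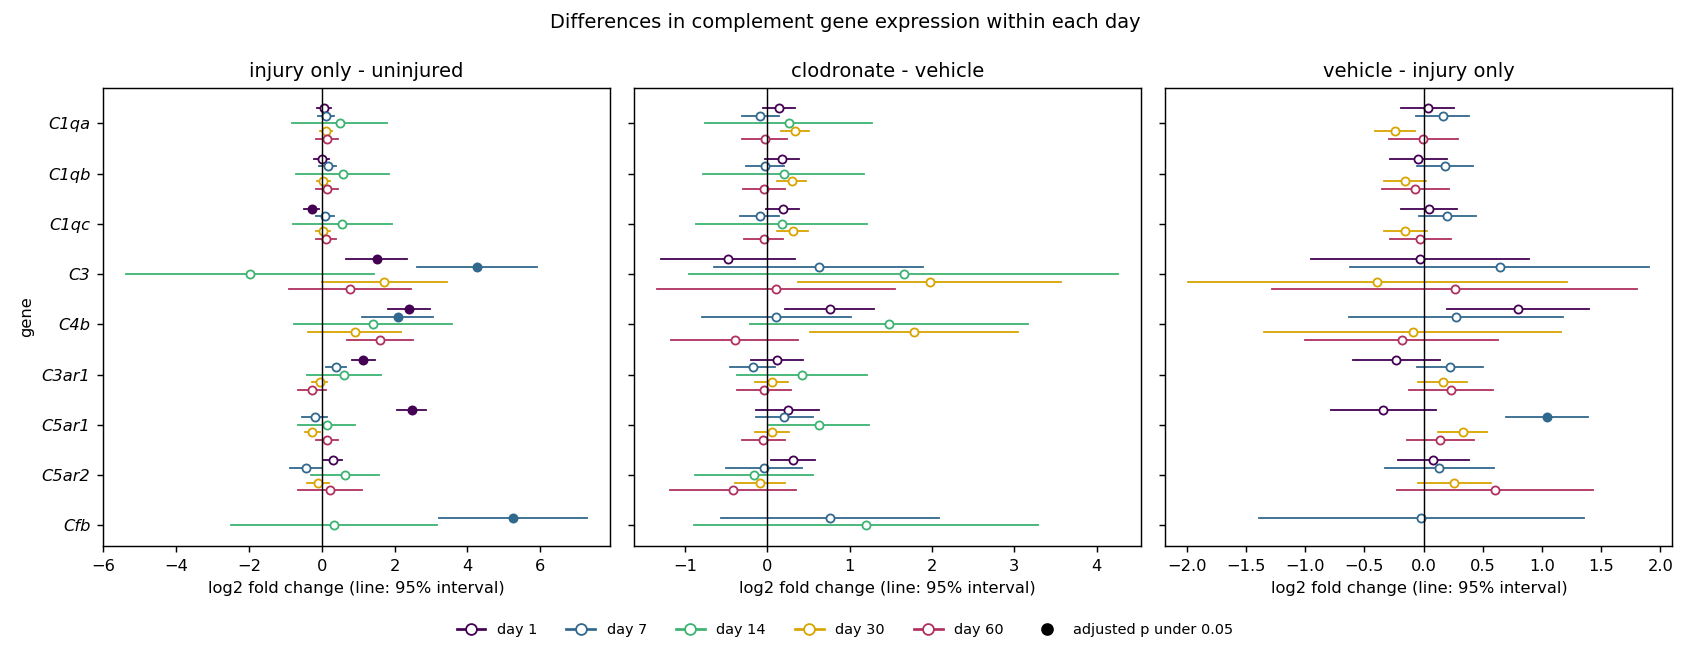
Log2 fold change of the 9 genes in each comparison within a day (x axis; lines are 95% intervals), for injury only against uninjured, clodronate against vehicle, and vehicle against injury only; the x axes differ in range. Filled points have an adjusted p under 0.05 by edgeR: 5 genes at day 1 and 3 at day 7 after injury, and C5ar1 at day 7 with vehicle. Among the 3 of day 7, Cfb passed the filter through the injured libraries and had to differ.

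Beyond the 9 genes, 34 further complement genes were listed: proteases and components, regulators and receptors. Of these, 19 were tested at day 1 and 4 rose and 3 fell after injury (33.8% of all genes were called), with a median log2 difference of 0.10 against 0.00 over all genes tested. Those that rose were Cfp (1.64), which encodes properdin, the stabiliser of the alternative convertase, Cd59a (1.69), an inhibitor of the membrane attack complex, Itgax (1.04), a chain of a complement receptor, and Cd93 (1.47), once named a C1q receptor. Among those that fell, C1rl, a C1r-like protease gene, fell by 0.89 and Masp1, a lectin pathway protease gene, by 2.01 on the log2 scale.

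At day 7, 21 of the 34 were tested and 6 rose and 1 fell (7.68% of all genes were called), with a median of 0.56 against 0.00 over all genes tested. Serping1, which encodes the C1 inhibitor, rose from 1.05 ± 0.558 to 8.50 ± 2.44 CPM (log2 difference 3.00, SE 0.56, adjusted p = 0.00231, n = 4 and 5). C1s1, the gene of the protease that cleaves C4, rose by 2.46, Itgax and Clu, the gene of the fluid-phase inhibitor clusterin, by 1.86 each, Cd59a by 1.46 and Masp1 by 1.35 on the log2 scale. C1rl again fell, by 0.81. The astrocyte and endothelial marker values of day 7 given above stand beside these as well, and their part was not tested. With clodronate against vehicle, Vtn rose at day 7 (log2 difference 1.71, SE 0.32, adjusted p = 0.0215 by edgeR), from 7.30 ± 3.82 to 27.1 ± 10.7 CPM (SD, n = 4 and 5). Vtn encodes vitronectin, an inhibitor of the membrane attack complex, and is also on the list of endothelial and mural markers, which summed to 758 to 1598 CPM with clodronate and 208 to 626 CPM with vehicle; the part of those cells was not tested. None of the 34 was called in the remaining comparisons.

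As a description of how the genes varied together, each library's log2 CPM was taken from the mean of its day and library year, and Pearson's r was computed over the 84 libraries with 8223 protein-coding genes. Libraries of 1 group share day and treatment, so the points are not independent and no p is given. Over all 84 libraries the genes most like C3 were Fabp5 (r = 0.834), Cd52 and then Lyz2 (0.809). Those most like C4b were Atp13a2 (0.842), Sdc3 (0.812) and Mfsd1 (0.806), and those most like Cfb were Tap1 (0.69), Il2rg (0.69) and Adap1 (0.662). C5ar1 was closest to Ctsc (0.884), Cd14 (0.879) and Ms4a6d (0.873), C3ar1 to Ccl12 (0.858), Ctsl (0.854) and Gpr84 (0.85), and C5ar2 to Slc23a2 (0.798), Neurl1a (0.762) and Sall3 (0.739). Among the C1q genes, C1qa was closest to Cd81 (0.927), Npl (0.914) and Tspan4 (0.912), C1qb to Cd81 (0.957), Tspan4 (0.93) and Nectin2 (0.913), and C1qc to Cd81 (0.965), Lgmn (0.935) and Tspan4 (0.93).

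Without uninjured library 3 of day 14, Fabp5 stayed closest to C3 (0.859), Atp13a2 to C4b (0.84) and Ctsc to C5ar1 (0.888). The closest gene changed for the other 6: it was then P2rx4 for Cfb (0.725), Osm for C3ar1 (0.848), Asxl2 for C5ar2 (0.639), Cyba for C1qa (0.853) and C1qb (0.835), and Fuca1 for C1qc (0.845). These 9 closest genes were the same without vehicle library 1 and clodronate library 1 of day 14 as well, over 81 libraries. Without uninjured library 3 alone, the r of Cd81 fell to 0.581 with C1qa, 0.74 with C1qb and 0.775 with C1qc. That of Tspan4 fell to 0.425, 0.518 and 0.45 in the same order. Among the members without uninjured library 3, r was 0.933 for C1qb with C1qc, 0.909 for C1qa with C1qb, 0.806 for C3ar1 with C5ar1, 0.753 for C3 with C4b and 0.632 for C3 with Cfb. Without all 3 libraries these were 0.928, 0.907, 0.807, 0.723 and 0.597. C5ar2 had r of 0.146 with C5ar1, its neighbour on the chromosome, and 0.164 without all 3.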

How the data were processed

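Per the labels' protocols, RNA of sorted microglia was made into Nextera XT libraries after 11 PCR cycles. Per the submitters' processing notes, reads were aligned with STAR to mm10/GRCm38; the file headers name HTSeq. Tool versions and the strand setting were not given in the sources used here. The authors deposited raw whole-number counts per Ensembl gene for each library, and a run summary with the percent of reads uniquely aligned (54.62 to 90.57) and the percent of duplicates; 1 of its 85 lines was not used. Reads in no gene took a median of 5.073% of a library and were left out of library sizes. No molecular identifiers were counted, so counts hold PCR copies. The interval of the Cfb count ratio covers counting error only, and the 95% intervals of fold changes come from the edgeR fit.

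From the counts, CPM were computed after TMM scaling of the 84 libraries. Genes passing edgeR's filter (minimum count 10) were tested with edgeR 4.0.16's quasi-likelihood test in R 4.3.3, in 1 fit per day of all treatments, with library year as a covariate at day 1. P-values were Benjamini-Hochberg adjusted over all genes tested, and a gene was called at an adjusted p under 0.05. In all, 14 comparisons within a day were made. The difference of an effect between days was tested in 1 fit of 84 libraries with a mean for each of the 22 groups. DESeq2 1.42.0, limma 3.58.1 (voom with quality weights), DESeq2 size factors, no filter, the compared groups alone, a replicate block and each library left out were the alternatives. The fits were tested on simulated data with known injury differences. At day 1, 62.9% of 97 genes with a log2 change of 1 in either direction were recovered, and 80.0% of 95 with a change of 2. Only changed genes that passed the filter were counted. Far fewer genes were changed there than the 4906 called in the data at day 1, so recovery in that test may differ. At day 60 the simulated percents were 15.6% and 53.8%, so many changes of these sizes would be missed at that day. Exon lengths and gene coordinates were from GENCODE M21 (GRCm38).

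Libraries were held paired where the deviations of same-numbered libraries, by the library names, correlated above 0.1 in every pair. This was so only for vehicle and injury only at day 30 (4 pairs, correlations of 0.118 to 0.251). There the block gave no call among the 9 genes, as without it. Weaker positive correlations in every pair were also present elsewhere, as for injury only and uninjured at day 30 (0.074 to 0.215). No pair of libraries agreed within sampling noise (lowest chi-square per degree of freedom 6.149). The genes and lists were chosen with earlier results of these data known. Text names all 9 genes, every other listed complement gene that was called except 1 that is not reported here, the 3 genes most correlated with each of the 9 over all 84 libraries and the closest 1 without the libraries that stood apart, and markers beside a result.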

Additional observations from a re-analysis of the deposited data

Results flagged for a closer look

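In groups of 4 or 5 libraries, 117 sets of values of the 9 genes with a mean of at least 1 CPM were searched on the log2 scale for a highest or lowest library far from the others, and 15 were found; chance gives about 1 in 20 independent sets, and these sets share libraries, so the numbers are not comparable. Most belonged to day 14. Vehicle library 1 was the highest of its group for C1qa (8039.6 CPM), C1qb (13570.5 CPM), C1qc (10367 CPM), C3 (361 CPM), C3ar1 (799.5 CPM), C5ar1 (617 CPM) and Cfb (6.61 CPM), and the lowest for C5ar2 (24.2 CPM). Clodronate library 1 was the lowest of its group for C3 (2.00 CPM), C4b (19.8 CPM), C3ar1 (572 CPM) and Cfb (0.105 CPM). The other 3 were uninjured library 2 of day 7 for C3ar1 (359.96 CPM), uninjured library 1 of day 1 for C5ar2 (23.3 CPM) and clodronate library 3 of day 60 for C5ar2 (14.3 CPM).

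By edgeR, the injury difference was called as varying with day for C5ar1 (adjusted p = 1.33e-09), C3ar1 (0.0227), Cfb (0.0328) and C3 (0.0449). Cfb passed the filter mainly through libraries where it is high, so its call is a description. The calls of C3 and C3ar1 were lost in some of the alternatives given above, and none stayed with day 1 left out.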

How the results depend on the processing

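Of 117 recounts of called members with 1 library left out, 115 stayed within 1.5 times the reported count, as did 98 of 110 recounts under other settings. In most comparisons the reported count was 0, and a recount of 0 is held the same. The loss of the C1qc call at day 1 or of the C4b call at day 7 after injury also stayed within this limit. With no filter on low counts, the count of members called became 1 (C4b) for injury at day 60, clodronate against vehicle at day 1 and vehicle against injury only at day 1. With limma voom it became 5 for clodronate against vehicle at day 14, 3 at day 30 and 3 for the difference of that effect between days. Without vehicle library 1 and clodronate library 1 of day 14, an alternative chosen after seeing the data, it became 3 at day 14 and 3 for that difference. Leaving out 1 library gave 0 to 2 for clodronate against vehicle at day 30 and 0 to 1 for vehicle against injury only at day 7. In that last comparison, the compared groups alone gave 0 and the replicate block gave 0 (C5ar1, adjusted p = 0.1015 by edgeR). By the rule above, the numbers do not pair these libraries (correlations of 0.036 to 0.105). The difference of the injury effect between days gave 0 members with day 1 left out and 2 with day 7 left out. The causes were not tested.

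Counts over all genes moved more. For clodronate against vehicle, edgeR called 22 higher and 5 lower at day 1, against 281 and 101 with no filter and 87 and 25 by DESeq2; at day 7 it called 65 and 17, against 244 and 95, and 309 and 105. For vehicle against injury only, 30 higher and 97 lower at day 1 became 314 and 526 with no filter, and 28 and 20 at day 7 became 150 and 72. For injury at day 7, 877 and 220 became 1250 and 708 by limma voom, and 1172 and 520 without vehicle library 4, the library with the fewest counts of that day, an alternative chosen after seeing the data.

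Few counts limit the precision of Cfb, which was at 0 in 17 libraries, and of scarce genes in the libraries of days 7 and 60 with the fewest counts.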
